A study of Mus musculus with 57 samples.

Results

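Guidance cue genes encode the ligands and receptors that steer growing axons and migrating cells, and 70 of them were followed through the embryonic mouse salivary gland. They were chosen by name as the protein-coding genes of the semaphorin, plexin, neuropilin, ephrin, Eph, Slit, Robo, netrin and Unc5 families and Dcc, out of 22028 protein-coding genes of the annotation. The set holds 20 semaphorins, 11 plexins and neuropilins, 8 ephrins, 14 Eph receptors, 6 Slit and Robo genes and 11 netrins and netrin receptors. Ntn3 was not analysed here. The other 69 were held by 4 of the 5 count tables, and 33 by the fifth.

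Semaphorins are secreted or membrane-bound ligands that act through plexins, and the secreted ones of vertebrates mostly need a neuropilin as co-receptor. Ephrins are bound to the cell surface and signal to Eph receptor tyrosine kinases on the neighbouring cell, and signals run back into the ephrin-bearing cell. Slit proteins repel cells through Robo receptors, while netrins attract through Dcc and repel through the Unc5 receptors. In branching organs such as the salivary gland the same families are known to act on epithelium, mesenchyme, vessels and nerves.

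RNA of 57 samples was sequenced, all from mouse embryos. Salivary glands labelled WT and untreated, titled SMG and freshly dissected, were taken at embryonic day (E) 13, 14, 15, 16, 17 and 18, with 4 samples a stage. End buds, the tips of the branching epithelium, are labelled WT salivary gland epithelium of E13 plus 4 h, either untreated or with NRG1 (neuregulin 1, which binds the receptor ERBB3). Those titled E13 numbered 3 with NRG1 and 3 controls, and those titled E14 numbered 3 with NRG1 and 2 controls. The E14 titles are at odds with their stage labels, which read E13 plus 4 h and, for NRG1 sample C, E13 plus 72 h, so E13 and E14 stand here for the titles. WT epithelium of E13 plus 72 h was given TORIN1, which inhibits mTOR, in 4 samples and the solvent DMSO in 4 samples, and the labels do not say whether NRG1 was present. E16 glands labelled Erbb3 KO numbered 4, beside 4 labelled WT, and the labels give neither the deleted exons nor the cells in which the gene was lost. WT E13 epithelium kept with NRG1 for 2, 3 or 4 days numbered 2 samples a day. The labels do not say that the replicates of a group were separate animals or cultures. The p-values therefore rest on a spread between samples that may be technical. In the end bud tables the column code S was read as NRG1, the only treatment in their titles.

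Total counts ran from 8913271 to 26306020 per sample outside the culture table, which holds part of each library. E18 sample D stood apart from the other E18 samples, with a normalization factor of 0.701 against 0.864 to 0.894. Its chi-square per gene against the other E18 samples was 155 to 209.9, and among those 9.62 to 17.1. TORIN1 sample A stood apart as well, with 88.0 to 104 against the other TORIN1 samples and 6.24 to 23.9 among those. The labelled tissues were set beside marker genes. E13 end buds had a summed level of 9 epithelial markers of 3801 to 4183 CPM with NRG1 and 3495 to 4184 CPM in the controls, beside 951.8 to 1098 CPM in E13 glands. Their 10 mesenchyme markers summed to 358 to 460.1 CPM with NRG1 and 194 to 585 CPM in the controls, beside 13475 to 13681 CPM in E13 glands. End buds titled E14 held more of the mesenchyme markers, at 3714 to 4621 CPM with NRG1 and at 5100 and 1534 CPM in controls B and C.

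Levels are CPM, counts scaled to a common library size, and calls are genes whose p in edgeR's quasi-likelihood test, adjusted by Benjamini-Hochberg over all genes of a table, was under 0.05. Errors of log2 fold changes are standard errors, and other errors are SD. In bulk RNA, fewer cells of a type and less RNA per cell cannot be told apart.

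The families differed in level when CPM was divided by exon length. In E13 glands (n = 4) the highest level per kilobase of exon in each family was that of Efnb1 among ephrins (68.002 ± 1.45 CPM per kb), Ephb4 among Eph receptors (66.3 ± 0.968), Plxnb2 among plexins and neuropilins (56.2 ± 2.32), Sema3b among semaphorins (53.7 ± 3.68), Robo2 among Slit and Robo genes (20.5 ± 0.538) and Unc5d among netrins and receptors (8.23 ± 0.325). Nrp2 (54.8 ± 0.918) did not differ from Plxnb2 beyond their spread. Efnb1 is a transmembrane ephrin, Ephb4 the receptor of ephrin-B2, Plxnb2 a receptor of transmembrane semaphorins, and Sema3b a secreted semaphorin. At E18 (n = 4) Ephb4 (44.2 ± 1.96 CPM per kb), Plxnb2 (39.8 ± 6.20) and Sema3b (14.4 ± 0.481) still led their families, Sema3b with Sema4c (14.2 ± 0.960) within its spread. The first place among ephrins had gone to Efna1 (34.6 ± 11.8), among netrins and receptors to Ntn1 (23.5 ± 2.97) and among Slit and Robo genes to Slit3 (4.98 ± 1.22). Epha6, Epha8, Ntn5 and Robo3 did not pass the filter on low counts in glands and averaged at most 0.476 CPM at any stage.

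How the gland changes between E13 and E18 was the first question. Most guidance genes fell. Of the 65 that passed the filter, 16 were higher and 45 lower at E18 than at E13, where 72.7% of all 16521 genes tested were called, 36.5% higher and 36.2% lower. The median log2 fold change was -0.90 over the 65 genes and 0.01 over all genes. All 65 changed somewhere between the 6 stages, as did 82.5% of all genes. Without E18 sample D 63 members were called at E18 against E13. The 31 genes with their highest mean at E13 and the 19 with it at E14 stood beside 11 with it at E18. The same count over all genes is not given.

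**Figure D1:**
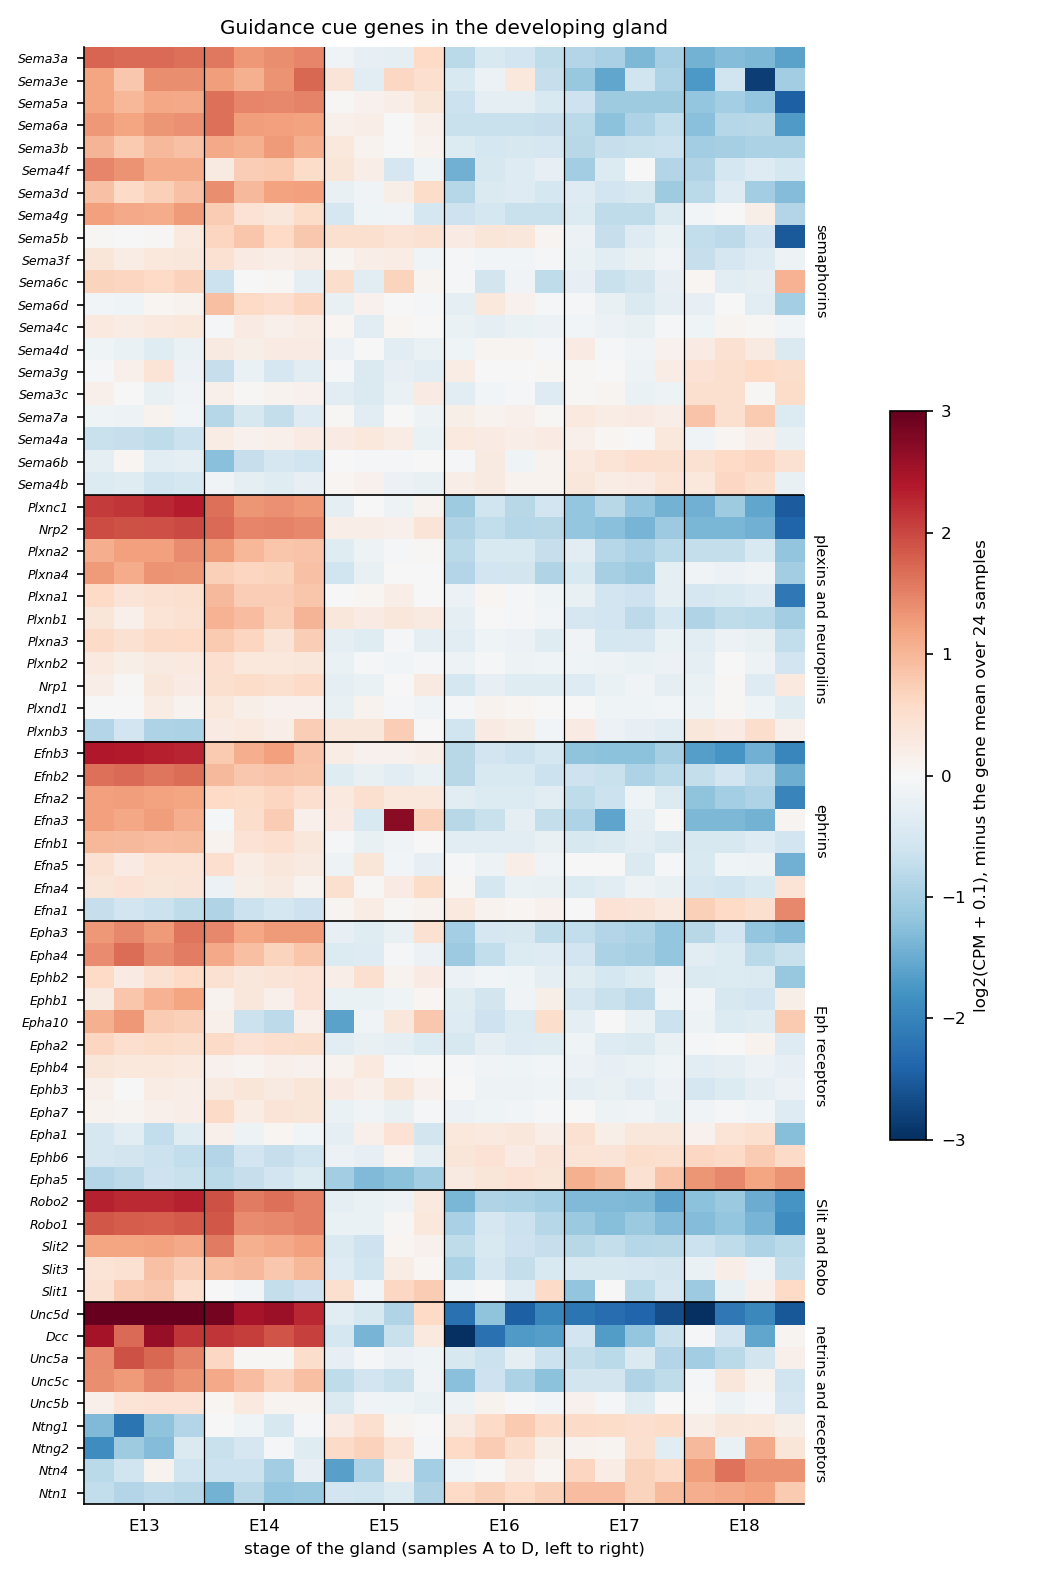
Levels of the 65 guidance genes that passed the filter in the 24 gland samples. Each row is a gene, grouped by family and ordered within it by the difference between E18 and E13, and each column a sample, grouped by stage; colour is log2(CPM + 0.1) minus the gene's mean over the 24 samples. In most rows red at E13 and E14 gives way to blue from E16 on, and the reverse is seen for Ntn1, Ntn4, Efna1, Epha5 and Ephb6; E18 sample D, the last column, differs from its 3 neighbours in several rows.

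The plexins and neuropilins, the receptors of semaphorins, were mostly lower at E18: 9 of 11 fell and 1 rose. Nrp2, a co-receptor for secreted semaphorins and for a vascular growth factor (chromosome 1, 62703285 to 62818695, plus strand on GRCm38), had 65.5, 64.9, 62.6 and 31.9 CPM at E18, against 651, 638, 643 and 663 CPM at E13. The groups were far apart, and within E18 sample D was the lowest (log2 fold change -3.53 ± 0.15, adjusted p = 1.06e-15). Plxnc1, the receptor of Sema7a, had 3.45, 4.53, 3.19 and 1.61 CPM at E18, against 41.3, 42.6, 46.6 and 49.7 CPM at E13. Every E18 sample was below every E13 sample (log2 fold change -3.79 ± 0.19, adjusted p = 2.17e-14). Nrp1, the partner of Sema3a, was not called at E18 against E13 (log2 fold change -0.25 ± 0.12, adjusted p = 0.0692), with means of 96.7 CPM at E18 and 115 CPM at E13. Plxnd1, the receptor of Sema3e and a gene of vessels, fell by little (log2 fold change -0.22 ± 0.08, adjusted p = 0.0216), and its groups overlapped. Plxnb3 rose (1.22 ± 0.23), with means of 2.50 CPM at E18 and 1.08 CPM at E13. Plxnb2 had 301, 359, 325 and 245 CPM at E18, against 446, 408, 435 and 446 CPM at E13, with the groups apart (log2 fold change -0.50 ± 0.09, adjusted p = 2.05e-05).

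Among the 20 semaphorins 7 rose and 11 fell. The secreted Sema3a, which repels sensory and sympathetic axons, had 7.95, 8.63, 8.29 and 6.96 CPM at E18, against 71.9, 70.003, 69.6 and 67.5 CPM at E13. Every E13 sample was far above every E18 sample (log2 fold change -3.13 ± 0.16, adjusted p = 1.94e-14). Sema3e had 0.493, 1.18, 0.174 and 0.841 CPM at E18, against 4.32, 3.33, 5.02 and 5.03 CPM at E13, with no overlap (log2 fold change -2.70 ± 0.36, adjusted p = 3.89e-07). Sema5a, a transmembrane semaphorin, had 33.4, 36.7, 33.5 and 13.8 CPM at E18, against 169.9, 149, 169 and 165 CPM at E13. It was lower in all E18 samples and lowest in sample D (log2 fold change -2.47 ± 0.19, adjusted p = 6.05e-11). Sema3b (chromosome 9, 107597674 to 107609229, minus strand) had 65.8, 67.97, 70.8 and 70.2 CPM at E18, against 274, 236, 268 and 249 CPM at E13. Its E18 samples lay close together (log2 fold change -1.90 ± 0.08, adjusted p = 3.27e-16). The transmembrane Sema6a (-2.42 ± 0.15) and the secreted Sema3d (-1.62 ± 0.18) fell as well. The 7 that rose did so by less than the falls named above: Sema4b (0.81 ± 0.13), Sema6b (0.76 ± 0.13), Sema4a (0.69 ± 0.10), Sema7a (0.57 ± 0.17), Sema3c (0.44 ± 0.13), Sema3g (0.42 ± 0.13) and Sema4d (0.40 ± 0.13). Smaller falls, such as that of Sema4c, are not listed. Sema7a, the ligand of Plxnc1, had 23.98, 18.5, 22.6 and 9.86 CPM at E18, against 12.1, 11.8, 14.1 and 12.5 CPM at E13, and these groups overlapped.

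All 8 ephrins changed, 7 downward. Efnb3, a transmembrane ephrin (chromosome 11, 69554092 to 69560205, minus strand), had 5.73, 5.27, 6.67 and 4.66 CPM at E18, against 96.95, 95.3, 93.002 and 89.02 CPM at E13. Of all members Unc5d alone fell further (log2 fold change -4.06 ± 0.12, adjusted p = 7.64e-19). Efnb2, the ligand of Ephb4 and a marker of arteries, had 78.8, 86.4, 74.2 and 46.3 CPM at E18, against 407, 416, 395 and 409.5 CPM at E13. No sample of one stage reached the range of the other (log2 fold change -2.51 ± 0.13, adjusted p = 4.22e-14). Efnb1 had 85.9, 86.9, 92.04 and 81.6 CPM at E18, against 241, 236, 229.6 and 232 CPM at E13 (log2 fold change -1.44 ± 0.08, adjusted p = 4.55e-14). Efna2, one of the ephrins tethered to the membrane by a lipid anchor, had 9.80, 11.1, 11.9 and 5.73 CPM at E18, against 54.03, 54.9, 52.5 and 52.3 CPM at E13 (log2 fold change -2.46 ± 0.15, adjusted p = 4.91e-13). Both again were lower in every E18 sample. The exception was Efna1, the ligand of Epha2, with 56.8, 52.3, 48.5 and 95.2 CPM at E18, against 21.5, 23.3, 22.1 and 20.4 CPM at E13. All E18 samples were above E13, with sample D far above the other E18 samples (log2 fold change 1.53 ± 0.15, adjusted p = 3.55e-09). Without E18 sample D its log2 fold change was 1.27.

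Of 12 Eph receptors tested, 3 rose and 9 fell. Epha5, a receptor of lipid-anchored ephrins (chromosome 5, 84054761 to 84417382, minus strand), rose most of the set in log2 terms. It had 25.5, 27.996, 23.2 and 25.8 CPM at E18, against 5.47, 5.86, 6.55 and 6.37 CPM at E13, and the groups were far apart (log2 fold change 2.08 ± 0.12, adjusted p = 3.30e-13). Ephb6, a receptor whose kinase is inactive, rose as well (1.25 ± 0.09), and Epha1 rose with overlapping groups (0.56 ± 0.24). The falls included Epha3 (-2.36 ± 0.17), Epha4 (-2.07 ± 0.16) and Ephb2 (-1.06 ± 0.13). Ephb4 had 194, 205, 216 and 207 CPM at E18, against 314, 308, 307 and 303 CPM at E13. It was lower in every E18 sample, by a smaller factor than its ligand Efnb2 (log2 fold change -0.58 ± 0.07, adjusted p = 4.27e-08).

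Slit and Robo genes gave no rise, and 4 of 5 tested fell. Robo2, a Slit receptor (chromosome 16, 73891839 to 74411825, minus strand), had 30.4, 33.02, 25.6 and 20.9 CPM at E18, against 358, 341, 340.3 and 354 CPM at E13. Robo1 had 18.6, 20.6, 17.4 and 12.5 CPM at E18, against 168, 162, 159.9 and 164 CPM at E13. Both receptors were lower at E18 in every sample (Robo2 log2 fold change -3.66 ± 0.15, adjusted p = 2.98e-16; Robo1 log2 fold change -3.24 ± 0.15, adjusted p = 2.97e-15). Their ligand Slit2 had 11.6, 10.6, 9.51 and 10.2 CPM at E18, against 41.1, 41.1, 41.9 and 40.1 CPM at E13 (log2 fold change -1.97 ± 0.14, adjusted p = 6.21e-12). Slit3 had 29.7, 38.7, 31.7 and 20.7 CPM at E18, against 45.4, 46.5, 62.001 and 56.8 CPM at E13 (log2 fold change -0.80 ± 0.17, adjusted p = 0.000168). The ligands were lower too, Slit3 by the smaller factor and with its lowest E18 value in sample D. Slit1 was not called (log2 fold change -0.74 ± 0.36, adjusted p = 0.0683).

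In the netrin group 4 netrins were higher and 5 receptors lower. Unc5d, a netrin receptor that also binds the adhesion protein Flrt2 (chromosome 8, 28646717 to 29219636, minus strand), fell more than any other member. It had 0.247, 0.641, 0.754 and 0.459 CPM at E18, against 77.2, 77.7, 71.4 and 77.3 CPM at E13. Every E13 sample was far above 1 CPM and every E18 sample below it (log2 fold change -7.13 ± 0.31, adjusted p = 1.36e-15). Dcc, the attractive netrin receptor, had 0.678, 0.444, 0.174 and 0.764 CPM at E18, against 4.49, 2.53, 4.84 and 3.49 CPM at E13, all E18 values being under 1 CPM (log2 fold change -2.92 ± 0.41, adjusted p = 1.01e-06). Unc5a (-2.19 ± 0.21), Unc5c (-1.38 ± 0.17) and Unc5b (-0.51 ± 0.12) fell as well. The ligand Ntn1 (chromosome 11, 68209364 to 68400823, minus strand) had 149.9, 155, 164 and 121 CPM at E18, against 41.9, 38.4, 40.8 and 38.6 CPM at E13. Every E18 sample exceeded every E13 sample (log2 fold change 1.88 ± 0.12, adjusted p = 6.88e-13). Ntn4, a netrin of basement membranes, had 5.80, 7.54, 6.15 and 6.19 CPM at E18, against 1.31, 1.52, 2.54 and 1.54 CPM at E13, with the groups apart (log2 fold change 1.89 ± 0.28, adjusted p = 2.42e-06). The lipid-anchored netrins Ntng1 (1.61 ± 0.19) and Ntng2 (1.95 ± 0.37) rose at low levels.

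**Figure D2:**
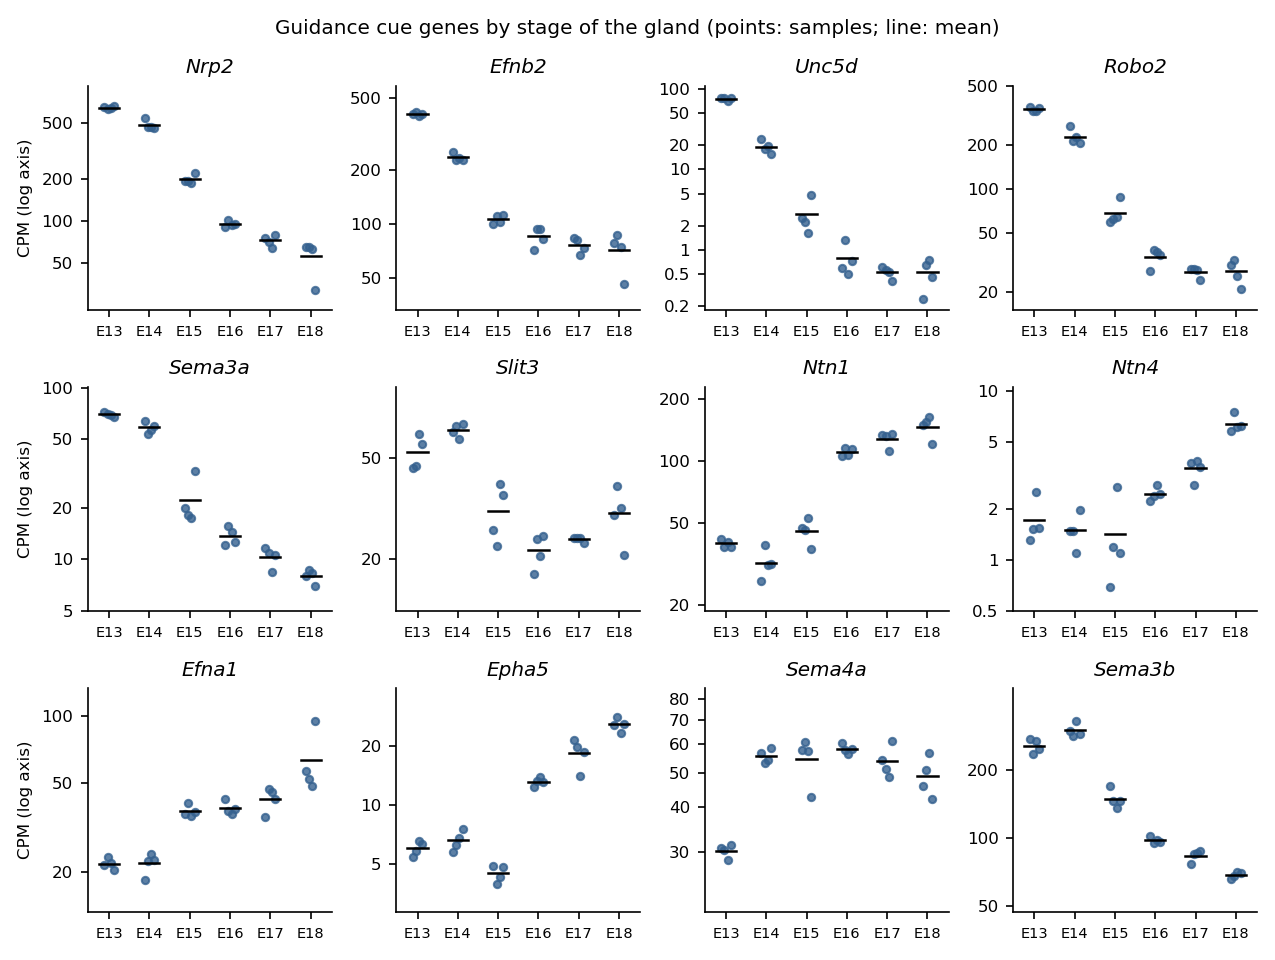
Level in CPM (log axis) of 12 guidance genes at each stage of the gland from E13 to E18; points are samples (4 a stage) and lines their means. Nrp2, Efnb2, Unc5d, Robo2, Sema3a and Sema3b step down most between E13 and E16, while Ntn1 and Epha5 step up between E15 and E16; Sema4a steps up once, between E13 and E14.

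The steps between stages were unequal. Against the stage before, 30 members were called at E14 (9 higher, 21 lower; 19.5% of all genes called, 11.8% higher and 7.63% lower), 44 at E15 (7 higher, 37 lower; 49.7% of all genes, 24.7% higher and 25% lower), 30 at E16 (4 higher, 26 lower; 23.5%, 12.2% higher and 11.3% lower), 3 at E17 (1 higher, 2 lower; 5.5%, 3.39% higher and 2.11% lower) and 10 at E18 (6 higher, 4 lower; 13%, 5.91% higher and 7.09% lower). The step with the largest change was E13 to E14 for 17 members and E14 to E15 for 37. E14 to E15 was also the step with the most calls over all genes, for which no count of largest steps is given. The E14 to E15 step held 10 of 11 plexins and neuropilins, all lower, and all 5 Slit and Robo genes tested, of which Slit1 was higher. Unc5d led with stage means of 75.9, 19.2, 2.81, 0.785, 0.530 and 0.525 CPM from E13 to E18. Ntn1 had stage means of 39.9, 32.2, 46.04, 111, 129 and 147 CPM, and its largest step was E15 to E16 (log2 fold change 1.27 ± 0.11). Epha5 averaged 6.06, 6.61, 4.52, 13.1, 18.4 and 25.6 CPM, with a fall at E15 (-0.55 ± 0.13) before its rise at E16 (1.53 ± 0.12). At E16 against E15 the 30 calls became 19 without E15 sample D. At E18 against E17 the 10 calls became 17 without E18 sample D, and 1 when the fit held those 2 stages only.

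Other genes of the same pathways were counted beside the members. Of 26 further ligands and co-receptors tested, 5 were higher and 12 lower at E18, with a median log2 fold change of -0.60. The adhesion ligands Flrt3 (-3.52 ± 0.17) and Flrt2 (-3.47 ± 0.17), which bind Unc5 receptors, fell most among them. Of 46 cytoplasmic effectors 9 were higher and 28 lower (median -0.64), the axonal collapsin response proteins Dpysl4 (-2.38 ± 0.14), Crmp1 (-2.28 ± 0.15) and Dpysl5 (-2.22 ± 0.12) among those that were lower.

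Markers of the cell types in the gland moved over the same stages. All 10 neuron markers were lower at E18, their summed level being 100.9 to 182 CPM at E18 and 350.4 to 440.3 CPM at E13. Of 10 mesenchyme markers 7 were lower and 1 higher, with sums of 4575 to 10847 CPM at E18 and 13475 to 13681 CPM at E13. Of 9 epithelial markers 8 were higher, with sums of 3786 to 6054 CPM at E18 and 951.8 to 1098 CPM at E13. Of 8 endothelial markers 6 were higher, and of 8 macrophage markers all 8. Of 7 Schwann cell markers 2 were higher and 3 lower, of 5 erythroid markers 4 were higher, and of 5 muscle markers 2 were lower. Their part in the changes of the guidance genes was not tested.

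Untreated E13 end buds were set beside whole E13 glands. They come from different tables, so no test was made and levels are compared at a factor of 4. Of 65 members with a mean of at least 1 CPM in either, 22 were at least 4-fold lower in the buds (33.8%) and 1 at least 4-fold higher (1.54%), beside 10.6% and 6.23% of all 14781 such genes. Epha3 had 2.89, 0.709 and 3.25 CPM in the control buds, against 109, 119, 107 and 132 CPM in glands. Nrp2 had 18.9, 7.21 and 22.3 CPM in the buds and 649 CPM on average in glands, 40.2-fold lower in the buds. The samples of the 2 tissues were far apart for both genes. Unc5d was 24.2-fold lower in the buds, Slit3 17.2-fold, Robo2 14.1-fold, Sema3a 13.6-fold, Plxnd1 11.6-fold, Nrp1 9.79-fold and Ntn1 9.21-fold. Sema3g and Dcc were lower by more than Slit3, at under 1 CPM in every control bud sample. By family the 4-fold lower genes were 7 of 20 semaphorins, 5 of 11 plexins and neuropilins, 4 of 9 netrins and receptors, 2 of 5 Slit and Robo genes, 3 of 12 Eph receptors and 1 of 8 ephrins. Epha2 and Sema3b were among these 22 genes. Levels in the buds near or above those of the gland were seen for Plxnb2 (507 CPM in buds, 434 CPM in glands), Plxnb1 (406 and 116), Ephb4 (272 and 308), Robo1 (177 and 163), Sema5a (176 and 163) and Sema6a (168 and 155). The 2 Robo receptors lay apart, Robo1 being at a like level in buds and glands and Robo2 lower in the buds.

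**Figure D3:**
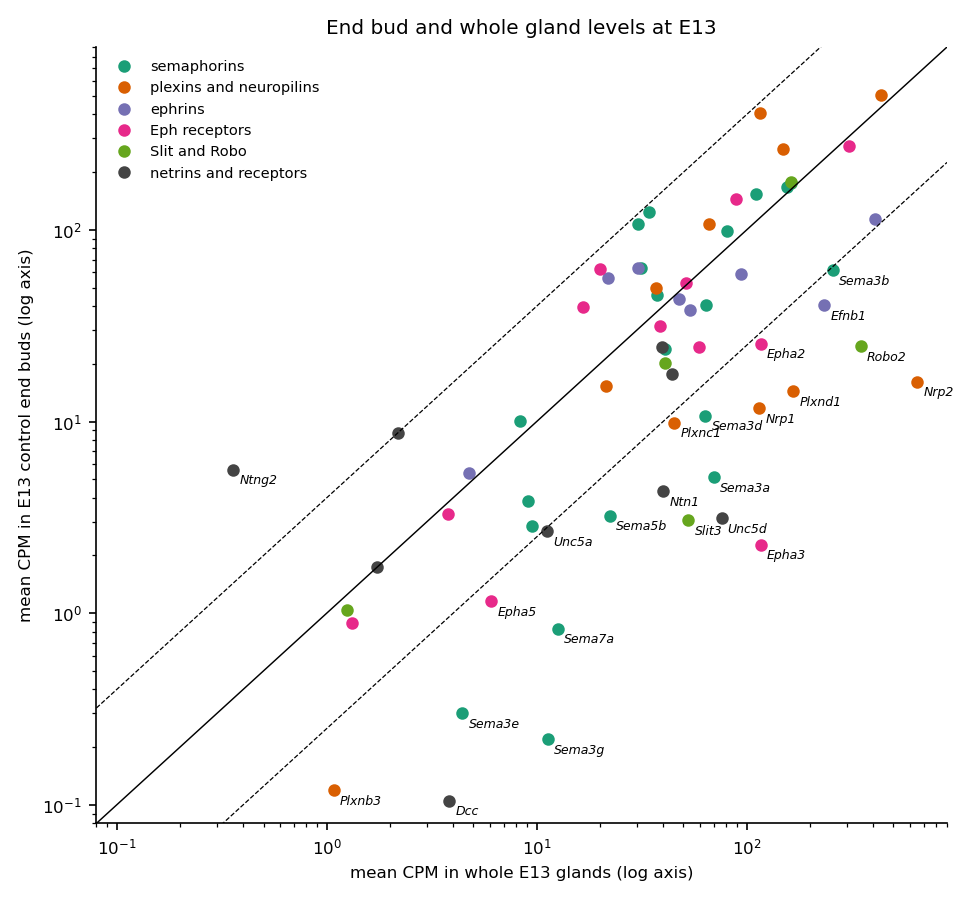
Mean level of guidance genes in untreated E13 end buds (vertical, CPM, log axis, n = 3) and in whole E13 glands (horizontal, CPM, log axis, n = 4), one point a gene and one colour a family. The solid line marks equal levels and the dashed lines a factor of 4. Below the lower dashed line lie 22 genes, with Epha3, Nrp2, Sema3g, Unc5d, Dcc and Slit3 far below it, and Ntng2 lies above the upper one.

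The response of end buds to NRG1, labelled 4 h in all but NRG1 sample C titled E14, was the next comparison. In E13 buds 11 of 64 members tested were higher and 18 lower with NRG1, and 42.4% of all 16180 genes were called, 23.1% higher and 19.3% lower. Epha2, Sema3b and Epha7 rose most, and netrins and their receptors gave no rise, with 4 of 8 lower. The members' median log2 fold change was -0.11, and that of all genes -0.02.

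Epha2, an Eph receptor of many epithelia (chromosome 4, 141301240 to 141329384, plus strand), had 103, 104 and 109 CPM with NRG1 and 26.97, 25.8 and 23.5 CPM in the controls in E13 buds. The groups were far apart with little spread (log2 fold change 2.06 ± 0.12, adjusted p = 7.66e-08). Its ligand Efna1 had 31.7, 33.8 and 30.98 CPM with NRG1 and 57.6, 55.5 and 54.7 CPM in the controls. Ligand and receptor moved in opposite directions with no overlap (log2 fold change -0.80 ± 0.07, adjusted p = 4.52e-07). Epha7 (chromosome 4, 28813131 to 28967499, plus strand) had 57.4, 58.8 and 61.3 CPM with NRG1 and 26.6, 22.5 and 24.8 CPM in the controls (log2 fold change 1.26 ± 0.08, adjusted p = 2.03e-08). Every NRG1 sample was above every control. Efna3 rose (0.84 ± 0.19), while the transmembrane ephrins Efnb3 (-0.47 ± 0.09) and Efnb2 (-0.41 ± 0.09) and the receptor Epha4 (-0.59 ± 0.13) fell.

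Among semaphorins 5 rose and 2 fell. Sema3b had 182, 174 and 195 CPM with NRG1 and 57.6, 58.8 and 67.96 CPM in the controls, the groups being far apart (log2 fold change 1.58 ± 0.07, adjusted p = 2.50e-09). Sema6a had 323, 330.4 and 312 CPM with NRG1 and 171, 178 and 156 CPM in the controls (log2 fold change 0.94 ± 0.06, adjusted p = 3.06e-08). Sema3d had 19.4, 21.2 and 22.9 CPM with NRG1 and 9.48, 8.69 and 13.97 CPM in the controls (log2 fold change 0.98 ± 0.22, adjusted p = 0.00334). In all of these the NRG1 samples lay above the controls. Sema4a (0.50 ± 0.08) and Sema3f (0.30 ± 0.08) rose by less. The transmembrane Sema6c had 3.80, 3.29 and 4.96 CPM with NRG1 and 8.46, 10.99 and 10.8 CPM in the controls, with the NRG1 samples lower (log2 fold change -1.33 ± 0.20, adjusted p = 9.01e-05), and Sema4b fell (-0.61 ± 0.09). No plexin or neuropilin rose. Plxna4, a receptor of Sema6a, had 5.54, 5.86 and 6.16 CPM with NRG1 and 12.001, 13.7 and 20.03 CPM in the controls (log2 fold change -1.38 ± 0.22, adjusted p = 0.000183). Plxnc1 had 6.08, 5.10 and 4.32 CPM with NRG1 and 9.03, 9.51 and 11.04 CPM in the controls (log2 fold change -0.94 ± 0.24, adjusted p = 0.00688). Both were lower in every NRG1 sample, and Plxna2, which also binds Sema6a, fell too (-0.65 ± 0.13).

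The 2 Robo receptors moved in opposite directions. Robo2 had 46.1, 46.8 and 54.02 CPM with NRG1 and 27.9, 19.97 and 26.2 CPM in the controls, all NRG1 samples being higher (log2 fold change 0.98 ± 0.23, adjusted p = 0.00719). Robo1 averaged 104 ± 8.56 CPM with NRG1 and 177 ± 16.4 CPM in the controls (SD, n = 3 each; log2 fold change -0.77 ± 0.08, adjusted p = 4.08e-06, edgeR). On the netrin side Ntn4 had 0.597, 0.333 and 0.695 CPM with NRG1 and 1.46, 1.89 and 1.86 CPM in the controls (log2 fold change -1.67 ± 0.36, adjusted p = 0.00175). Ntng2 had 1.52, 2.95 and 2.33 CPM with NRG1 and 6.14, 4.25 and 6.45 CPM in the controls (log2 fold change -1.31 ± 0.27, adjusted p = 0.00119). Unc5c had 8.74, 7.05 and 6.60 CPM with NRG1 and 12.4, 13.7 and 26.8 CPM in the controls, control C being well above controls A and B (log2 fold change -1.25 ± 0.41, adjusted p = 0.0385). Unc5c was not called under 6 of 11 alternatives. All were lower with NRG1 without overlap, at low levels.

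**Figure D4:**
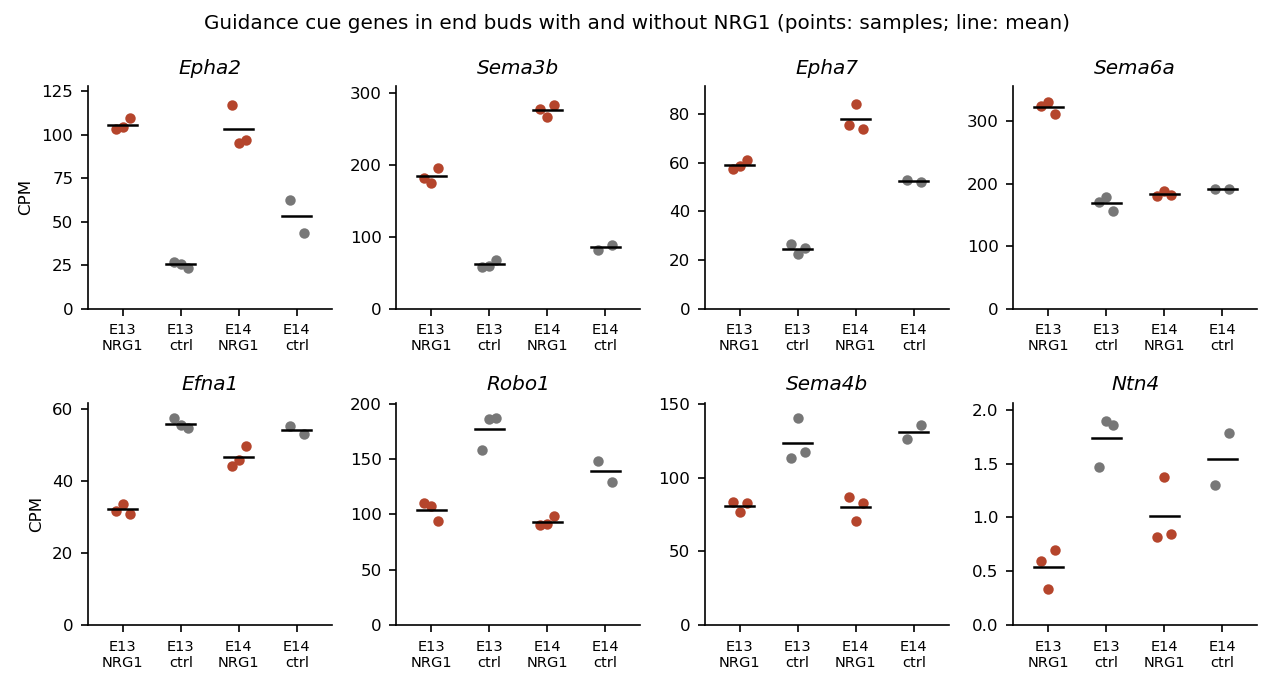
Level in CPM of 8 guidance genes in end buds with NRG1 (red) or untreated (grey), by title. The labels read 4 h, and 72 h for NRG1 sample C titled E14. Points are samples, lines their means, and axes start at 0. Epha2, Sema3b and Epha7 are higher with NRG1 at both titles, Sema6a is higher with NRG1 at E13 alone, and the lower row shows genes with lower levels with NRG1.

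End buds titled E14 gave 3 rises and 20 falls, with 36.2% of all genes called, 20.2% higher and 16% lower. The 3 that rose had also risen at E13, and 12 of the 20 that fell had also fallen at E13. No member was called in opposite directions. The same overlap over all genes is not given, so these counts describe the members only. Sema3b had 277, 266 and 283 CPM with NRG1 and 81.1 and 88.9 CPM in the controls (log2 fold change 1.70 ± 0.09, adjusted p = 3.97e-08). Epha2 had 117, 95.4 and 96.9 CPM with NRG1 and 62.4 and 43.7 CPM in the controls (log2 fold change 0.96 ± 0.13, adjusted p = 0.000153). Epha7 had 75.6, 84.2 and 74.02 CPM with NRG1 and 52.9 and 51.95 CPM in the controls (log2 fold change 0.57 ± 0.08, adjusted p = 0.000114). In each gene every NRG1 sample was above both controls. The falls included Sema6c (-1.10 ± 0.22), Ephb6 (-0.86 ± 0.13), Sema4b (-0.71 ± 0.10), Robo1 (-0.57 ± 0.09) and the receptors Plxnb1 (-0.54 ± 0.10), Plxnb2 (-0.37 ± 0.07) and Plxna1 (-0.36 ± 0.08), which were not called at E13. Without NRG1 sample B 14 members were called, and 14 when the fit held the E14 samples alone. The members named in this paragraph stayed called without NRG1 sample C, the one labelled 72 h.

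The difference between the NRG1 effects at the 2 titles was tested for every gene, and 4 members were called 3 lower and 1 higher, beside 2.27% of all genes, 1.53% lower and 0.735% higher. The effect at E14 minus that at E13 was -1.09 ± 0.18 for Epha2 (adjusted p = 0.00826), -1.0 ± 0.09 for Sema6a (adjusted p = 0.0001), -0.69 ± 0.11 for Epha7 (adjusted p = 0.00578) and 0.58 ± 0.10 for Efna1 (adjusted p = 0.00861). Sema6a had 181, 188 and 182 CPM with NRG1 and 192 and 191 CPM in the controls at E14, where the gene was not called (log2 fold change -0.06 ± 0.07, adjusted p = 0.507). With NRG1 the Epha2 ranges of the 2 titles overlapped, and the untreated level was higher at E14 (53.04 ± 13.2 CPM for Epha2 at E14, n = 2, and 25.4 ± 1.78 CPM at E13, n = 3). Epha2 was at least 4-fold lower in E13 control buds than in E13 glands. It was higher in E14 control B than in C, as were the mesenchyme markers (5100 and 1534 CPM, and 194 to 585 CPM in E13 controls). The part of other tissue in the Epha2 difference was not tested. All 4 differences stayed called without NRG1 sample C titled E14. The other differences between titles were not called, those of Plxnb1 (-0.44 ± 0.13), Plxnb2 (-0.28 ± 0.10) and Plxna1 (-0.30 ± 0.11) among them. Without E14 control B, which leaves 1 control assumed to vary like the other groups, 16 members were called.

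Some members differed between the 2 E14 controls in the same direction as the mesenchyme and endothelial markers. Others, such as Ephb6, did not, and no share of all genes is given. E14 controls B and C had 167 and 61.7 CPM of Nrp2, 163 and 92.4 CPM of Plxnd1 and 32.7 and 7.46 CPM of Epha3. The same samples had 5100 and 1534 CPM of mesenchyme markers and 302 and 189.7 CPM of endothelial markers. None of these genes was called with NRG1 at E14, and no mesenchyme or endothelial marker was called at either title. Of 7 Schwann cell markers 2 fell at E13, with sums of 704.9 to 771.8 CPM with NRG1 and 676 to 729.7 CPM in the controls, and 1 rose and 1 fell at E14, with sums of 595 to 721 CPM with NRG1 and of 618 and 743 CPM in the controls. Sox10 made up most of these sums, with 717, 665 and 665 CPM in the E13 control buds. It had 147 to 169 CPM in whole E13 glands, so the bud sums mainly follow Sox10, which was higher in buds than in glands. Of 9 epithelial markers 2 rose and 2 fell at E13, and 2 fell at E14. Their part in the changes was not tested. Of the further ligands and co-receptors 7 rose and 5 fell in E13 buds and 2 rose and 4 fell in E14 buds, of 26 tested. Of 46 cytoplasmic effectors 17 rose and 6 fell in E13 buds, and 11 rose and 13 fell in E14 buds.

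Epha2 and Epha7 were the Eph receptors higher with NRG1 at both titles, so their promoters are shown. RefSeq promoter windows on GRCm38.p6, from 250 bases before to 50 after the start, were found for 60 of the 70 members. They were searched on both strands for the AP-1 motif TGANTCA, the cyclic AMP response element (CRE) TGACGTCA, the ETS core CCGGAA and the EGR motif GCGNGGGCG, which bind factors known to act downstream of growth factor receptors. The Epha2 window (chr4:141300971-141301270, plus strand) holds 1 CRE, in capitals, which starts 33 bases before the start, and none of the other motifs. Epha7 has 2 listed starts, and neither window holds a match, the first of them (chr4:28812881-28813180, plus strand) being shown.
Epha2: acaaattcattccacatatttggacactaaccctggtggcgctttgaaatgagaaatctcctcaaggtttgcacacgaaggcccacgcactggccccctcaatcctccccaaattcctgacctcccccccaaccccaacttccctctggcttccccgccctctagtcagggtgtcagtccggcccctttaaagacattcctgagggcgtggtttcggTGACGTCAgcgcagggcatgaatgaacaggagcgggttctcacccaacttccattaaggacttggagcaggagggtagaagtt
Epha7: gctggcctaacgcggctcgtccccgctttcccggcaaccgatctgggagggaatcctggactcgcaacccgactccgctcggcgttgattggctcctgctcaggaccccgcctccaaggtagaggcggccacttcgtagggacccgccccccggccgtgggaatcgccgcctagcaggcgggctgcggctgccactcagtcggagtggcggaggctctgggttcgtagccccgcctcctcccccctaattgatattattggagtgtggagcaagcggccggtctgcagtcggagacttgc
Of all 32851 windows 1.79% hold the CRE, 7.81% the AP-1 motif, 14.9% the ETS core and 5.55% the EGR motif. Of the 76 member windows 1.32% hold the CRE, 3.95% the AP-1 motif, 9.21% the ETS core and 18.4% the EGR motif, which is 14 windows. Sema3b has no entry. A match is a description of letters and not a bound site.

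Epithelium kept with NRG1 was followed over days, with no untreated culture beside it. The table holds 33 members, with 5171 genes tested in all, and no source used here says how those were picked. All 5171 passed the filter, while the other tables hold 35275 to 54532 genes. If the genes were picked for change over these days, the calls and p-values below could not test that change. On day 4 against day 2, 13 members were higher and 15 lower, with 91.7% of the genes in the table called, 48.7% higher and 43% lower, and a median log2 fold change of 0.18 over all of them and of -0.19 over the members. Unc5c (chromosome 3, 141465216 to 141834924, plus strand) had 9.57 and 7.43 CPM on day 2, 31.6 and 35.6 CPM on day 3 and 100.02 and 99.4 CPM on day 4. It climbed at both steps (day 4 against day 2 log2 fold change 3.55 ± 0.13, adjusted p = 1.06e-05). Its ligand Ntn1 had 115 and 110.5 CPM on day 2, 149 and 169 CPM on day 3 and 256 and 281 CPM on day 4 (log2 fold change 1.25 ± 0.08, adjusted p = 7.63e-05), and Ntn4 had 3.71 and 3.59 CPM on day 2, 10.4 and 7.11 CPM on day 3 and 8.32 and 11.8 CPM on day 4 (log2 fold change 1.46 ± 0.30, adjusted p = 0.00383). Epha5 had 49.04 and 62.6 CPM on day 2, 100.1 and 101 CPM on day 3 and 112 and 122 CPM on day 4, days 3 and 4 lying above day 2 (log2 fold change 1.06 ± 0.12, adjusted p = 0.000366). Slit3 had 7.67 and 10.7 CPM on day 2, 42.8 and 23.04 CPM on day 3 and 34.5 and 33.8 CPM on day 4 (log2 fold change 1.89 ± 0.30, adjusted p = 0.00143). Nrp1 had 3.10 and 5.55 CPM on day 2, 16.4 and 12.1 CPM on day 3 and 13.9 and 14.2 CPM on day 4 (log2 fold change 1.69 ± 0.31, adjusted p = 0.00226). The last 2 rose by day 3 and were not called between days 3 and 4.

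Falls over the culture were led by Efnb3, with 11.8 and 12.99 CPM on day 2, 7.06 and 8.05 CPM on day 3 and 4.64 and 4.69 CPM on day 4 (log2 fold change -1.41 ± 0.22, adjusted p = 0.00125). Sema6a had 89.03 and 76.9 CPM on day 2, 34.3 and 50.7 CPM on day 3 and 42.8 and 28.5 CPM on day 4 (log2 fold change -1.22 ± 0.23, adjusted p = 0.00273). Sema5a had 291 and 280.1 CPM on day 2, 237 and 219.8 CPM on day 3 and 137 and 117 CPM on day 4 (log2 fold change -1.17 ± 0.09, adjusted p = 0.000101). Sema3b had 559.9 and 517 CPM on day 2, 264 and 419 CPM on day 3 and 343 and 234 CPM on day 4, highest on day 2 and uneven between the 2 samples of days 3 and 4 (log2 fold change -0.90 ± 0.23, adjusted p = 0.00868). Of 11 semaphorins held there, 9 were lower on day 4 and 1 higher. Against the day before, 20 members were called on day 3 (11 higher, 9 lower; 49.3% of genes, 24% higher and 25.3% lower) and 15 on day 4 (6 higher, 9 lower; 46.6%, 24.6% higher and 22% lower). Leaving out 1 sample leaves a single sample on that day, assumed to vary like the others, and gave 2 to 17 calls on day 3 (2 without day 2 sample NRG1) and 5 to 10 on day 4 against day 3. Of 6 macrophage markers in the table all 6 rose by day 4, their sum being 14.7 and 24.9 CPM on day 2 and 47.5 and 132.8 CPM on day 4. Sox10, the 1 Schwann cell marker in the table, fell (386 and 356 CPM on day 2, 87.6 and 139.7 CPM on day 3, 35.3 and 33.7 CPM on day 4). The 1 neuron marker rose, as did the 1 erythroid marker, and of 7 epithelial markers 4 rose and 2 fell. Their part in these changes was not tested. Of 11 further ligands and co-receptors held there, 4 rose and 6 fell by day 4, and of 24 effectors 5 rose and 18 fell.

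TORIN1 blocks mTOR, a kinase of growth signalling. In 72 h epithelium 7 of 55 members tested were called, 5 higher and 2 lower, beside 5.83% of all 14985 genes, 2.46% higher and 3.36% lower. Without TORIN1 sample A, the library that stood apart, 18 were called, 16 higher and 2 lower. The shares of all genes above are those of the fit with all samples, and none is given for the fit without sample A. A further 14 members did not pass the filter, Dcc, Unc5d, Sema3g and Slit1 among them. Unc5c had 7.34, 17.98, 9.69 and 10.98 CPM with TORIN1, against 28.5, 40.9, 30.8 and 25.7 CPM with DMSO. Every TORIN1 sample was below every DMSO sample (log2 fold change -1.45 ± 0.26, adjusted p = 0.018). Nrp1 had 4.42, 7.23, 5.15 and 4.82 CPM with TORIN1, against 7.77, 12.97, 9.76 and 9.25 CPM with DMSO, also lower without overlap (log2 fold change -0.88 ± 0.21, adjusted p = 0.0431). The rises were led by Ephb1, a receptor of transmembrane ephrins, with 5.07, 4.10, 6.04 and 5.66 CPM with TORIN1, against 2.35, 1.69, 1.25 and 2.47 CPM with DMSO (log2 fold change 1.43 ± 0.25, adjusted p = 0.016). Sema3b had 349.8, 257, 226 and 283 CPM with TORIN1, against 185, 164, 155 and 211 CPM with DMSO (log2 fold change 0.64 ± 0.15, adjusted p = 0.0415). Sema3f, a ligand of Nrp2, had 233, 197, 221 and 213 CPM with TORIN1, against 157, 149, 161 and 168 CPM with DMSO (log2 fold change 0.44 ± 0.08, adjusted p = 0.0211). In these the TORIN1 samples were all higher. Sema6c had 25.5, 15.4, 20.99 and 17.6 CPM with TORIN1, against 10.7, 10.51, 12.7 and 12.2 CPM with DMSO (log2 fold change 0.78 ± 0.17, adjusted p = 0.0295). Efna2 had 12.1, 10.7, 12.8 and 11.9 CPM with TORIN1, against 7.32, 6.54, 6.91 and 8.51 CPM with DMSO (log2 fold change 0.70 ± 0.13, adjusted p = 0.0202). These too were apart. Sample A was the lowest TORIN1 sample for Unc5c and Nrp1 and the highest for Sema3b, Sema3f and Sema6c.

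The calls under TORIN1 depended on single samples. None of the 7 was called without TORIN1 C or D or without DMSO A, B or C, where 16, 20, 19, 17 and 18 members had an unadjusted p under 0.05 by edgeR. DESeq2 called 13. All 7 kept their direction in each of these fits. Ntn1, Epha5 and Unc5b were lower on average without being called, Ntn1 with 80.2, 93.2, 50.8 and 60.6 CPM with TORIN1, against 115, 114, 101 and 86.3 CPM with DMSO (log2 fold change -0.54 ± 0.19, adjusted p = 0.12) and Epha5 with 53.04, 91.7, 53.5 and 75.1 CPM with TORIN1, against 98.1, 127, 110.4 and 82.4 CPM with DMSO (log2 fold change -0.61 ± 0.20, adjusted p = 0.105). The groups overlapped for both. Of 8 macrophage markers 1 was lower with TORIN1, with sums of 8.36 to 19.9 CPM with TORIN1 and 17.1 to 35.0 CPM with DMSO. Of 2 Schwann cell markers tested 1 was higher, with sums over all 7 of 25.7 to 70.8 CPM with TORIN1 and 12.4 to 24.8 CPM with DMSO. Sox10 made up most of both sums, at 20.6 to 65.4 CPM with TORIN1 and 8.39 to 21.8 CPM with DMSO. The part of these cell types in the calls was not tested. Of 17 further ligands and co-receptors tested 1 was higher, and of 43 effectors 1 was lower.

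In the libraries labelled Erbb3 KO the gene itself was still counted. Erbb3 had 35.1, 32.0, 73.6 and 68.6 CPM in KO samples 1 to 4, against 89.7, 69.6, 124.2 and 118.2 CPM in WT samples 1 to 4. KO sample 3 was above WT sample 2, so the groups overlapped. Whether counts outside a deleted part remain cannot be told from the labels, and directions below are those of the libraries labelled KO.

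In KO against WT libraries 6 of 64 members tested were called, 4 higher and 2 lower, with 7.03% of all 14991 genes called, 2.83% higher and 4.2% lower. Epha5 had 4.52, 3.48, 4.19 and 5.63 CPM in KO glands, against 21.9, 10.1, 16.002 and 8.64 CPM in WT glands. All KO samples were lower (log2 fold change -1.66 ± 0.30, adjusted p = 0.0212). The transmembrane Sema6d had 15.1, 19.2, 21.96 and 21.8 CPM in KO glands, against 36.6, 25.9, 44.8 and 34.5 CPM in WT glands, with no overlap (log2 fold change -0.86 ± 0.19, adjusted p = 0.0354). Lipid-anchored ephrins made up 3 of the 4 rises. Efna5, also lipid-anchored, was lower in KO without overlap but was not called (log2 fold change -0.57 ± 0.21, adjusted p = 0.0936 by edgeR). Efna1 was not called either (0.30 ± 0.19). Efna3 (chromosome 3, 89313899 to 89322965, minus strand) had 13.5, 13.4, 3.06 and 4.65 CPM in KO glands, against 0.861, 2.52, 2.09 and 2.26 CPM in WT glands, KO samples 1 and 2 far above 3 and 4 (log2 fold change 2.14 ± 0.49, adjusted p = 0.0381). The nearby Efna4 (chromosome 3, 89333390 to 89338028, minus strand) had 48.5, 43.1, 44.2 and 37.4 CPM in KO glands, against 21.6, 31.7, 25.3 and 33.5 CPM in WT glands (log2 fold change 0.63 ± 0.16, adjusted p = 0.0449). Efna2 had 83.3, 85.3, 51.98 and 69.2 CPM in KO glands, against 30.6, 57.8, 32.3 and 42.4 CPM in WT glands, and here KO sample 3 was below WT sample 2 (log2 fold change 0.83 ± 0.22, adjusted p = 0.0449). Sema3b had 524, 473, 305 and 273 CPM in KO glands, against 153, 231, 172 and 227 CPM in WT glands, all KO samples being higher (log2 fold change 1.01 ± 0.22, adjusted p = 0.0354). Epha2 was not called, with 109.9, 117, 81.1 and 85.5 CPM in KO glands, against 49.8, 69.4, 77.999 and 95.1 CPM in WT glands (log2 fold change 0.43 ± 0.19, adjusted p = 0.153).

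These calls too depended on single samples. Without KO 1, KO 2 or WT 3 none of the 6 was called, and 12, 19 and 11 members had an unadjusted p under 0.05 by edgeR. Without KO 4, WT 1 and WT 4 the counts were 3, 3 and 1, without WT 2 the count was 13, and both DESeq2 and the fit with no filter called 11. All 6 kept their direction in these fits. Efna3, Sema3b and Epha2 were higher in KO samples 1 and 2, those with the lower Erbb3, than in KO samples 3 and 4. The same pairs differed in the epithelial marker Epcam (402 and 357 CPM, against 564 and 500 CPM). They differed too in the mesenchyme marker Col1a1 (6463 and 5918 CPM, against 3516 and 4566 CPM). Erbb3 was also lower in WT samples 1 and 2 than in WT samples 3 and 4. What set the pairs apart was not tested. Of 8 macrophage markers 3 were higher in KO, with sums of 233 to 443.5 CPM in KO and 195.7 to 227.6 CPM in WT. Of 7 Schwann cell markers 1 was higher, with sums of 630.4 to 775.5 CPM in KO and 335 to 573.6 CPM in WT. Sox10 made up most of these sums, at 542 to 688 CPM in KO and 271 to 513 CPM in WT. Of 8 endothelial markers 1 was lower, of 10 mesenchyme markers 1 was higher, and of 9 epithelial markers 1 was higher and 1 lower. The part of these cells was not tested. Of 25 further ligands and co-receptors 2 were lower, and of 46 effectors 1 was higher and 3 lower.

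**Figure D5:**
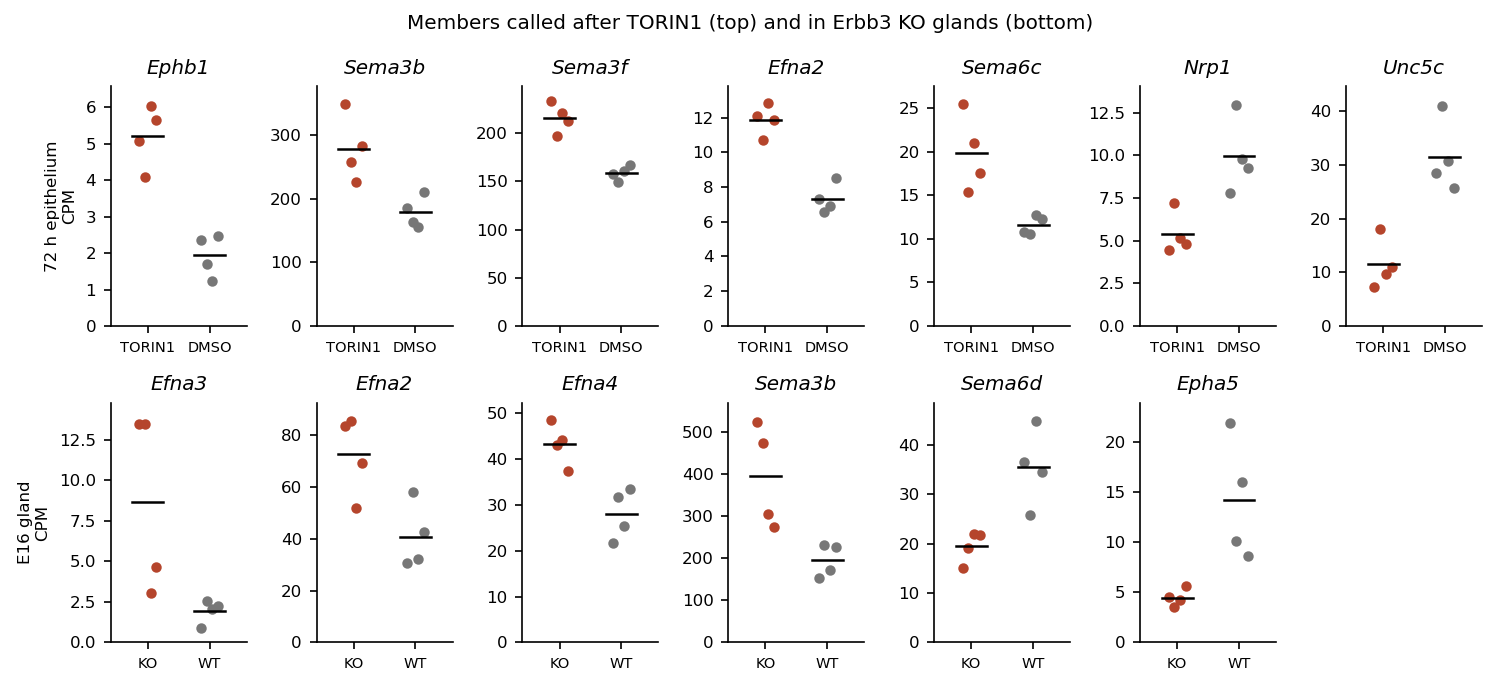
Level in CPM of the guidance genes called after TORIN1 (upper row, 72 h epithelium) and in Erbb3 KO glands (lower row, E16); red points are TORIN1 or KO samples, grey points DMSO or WT samples, 4 each, lines are means and axes start at 0. The groups do not overlap in any panel but that of Efna2 in KO glands, and KO samples split into a higher and a lower pair for Efna3 and Sema3b.

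Many members were called in several of the sets, Efna2, Sema6a and Sema6c among them. Values of Sema3b, Epha5 and Unc5c stand side by side here as examples. No count of such recurrence over all genes is given. Sema3b was higher with NRG1 at both titles (1.58 and 1.70), higher with TORIN1 (0.64), higher in the libraries labelled KO (1.01), lower on day 4 than day 2 of culture (-0.90) and lower in E18 than E13 glands (-1.90), all as log2 fold changes. Epha5 was higher with NRG1 in E13 buds, at under 3 CPM and with overlap (0.79), higher on day 4 than day 2 of culture (1.06), lower in KO libraries (-1.66) and higher in E18 glands (2.08). Unc5c was lower with NRG1 after 4 h in E13 buds (-1.25), higher on day 4 of NRG1 culture (3.55), lower with TORIN1 (-1.45) and lower in E18 glands (-1.38). These come from separate tables, and the differences between sets were not tested. Several of these calls were lost under some alternatives. For Epha5 they were 10 of 11 in E13 buds and 3 of 12 in KO libraries. For Unc5c they were 6 of 11 in E13 buds and 5 of 12 with TORIN1. For Sema3b they were 6 of 12 with TORIN1, 4 of 12 in KO libraries and 2 of 9 in culture. The calls in E18 against E13 glands, those of Sema3b with NRG1 and those of Epha5 and Unc5c in culture were kept under every alternative run.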

How the data were processed

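RNA sequencing of 57 samples was held in 5 tables of raw counts per gene, which the authors deposited. Per the submitters' processing notes, fastp, STAR and featureCounts were used with the mm10 build; no source used here gives versions or the strand setting. Of the members 32 overlap a gene on the opposite strand, and without the strand setting reads of such pairs may be shared.

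Samples were grouped by GEO's labels. Each table was fitted with edgeR 4.0.16 in R 4.3.3: genes passing filterByExpr, TMM factors, all groups of a table in one robust quasi-likelihood fit, Benjamini-Hochberg adjustment over all genes tested and a threshold of 0.05. The standard error is the absolute log2 fold change divided by the square root of F. CPM uses the library size of tested genes times the TMM factor, and lengths are exon unions of GENCODE M21 (GRCm38). Steps were tested on simulated data. Of the 70 members, 69 were in 4 tables, of which 65, 64, 55 and 64 passed the filter in glands, end buds, the TORIN1 set and the KO set. The culture table holds part of each library, and 8 entries that were dates were dropped from it. Total counts, given in the report, set the counting precision. All replicate pairs differed by more than sampling noise, with chi-square per gene of at least 3.30.

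Per-sample values are given for up to 12 called members with the largest changes and no overlap between groups, for the member with the highest level per exon length in each family, and for known partners of members so named. Efna2 in KO libraries, and Ntn1 and Epha5 with TORIN1, were added after their values were seen. The members and lists were chosen with earlier results of these data known. Alternatives were DESeq2 1.42.0, RLE factors, no filter, the compared groups alone, leaving out each sample, and a replicate block.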

Additional observations from a re-analysis of the deposited data

Results flagged for a closer look

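In groups of 4 samples, 13 of 168 combinations of gene and group had a sample set apart from the other 3, where chance gives about 1 in 20. At E18 sample D was lowest for Nrp2 (31.9 CPM, the others 62.6 to 65.5) and Sema5a (13.8 CPM, the others 33.4 to 36.7). At E17 sample D was highest for Efnb3 (9.16 CPM) and lowest for Robo2 (24.03 CPM) and Slit3 (23.1 CPM), sample A highest for Sema5a (48.6 CPM), sample B highest for Slit2 (10.97 CPM) and sample C lowest for Ntn1 (112 CPM). At E15 sample D was highest for Sema3a (32.6 CPM, the others 17.4 to 19.9) and sample B highest for Efna2 (32.1 CPM). At E14 sample A was highest for Nrp2 (549 CPM) and Plxnc1 (30.6 CPM), and at E13 sample C was lowest for Unc5d (71.4 CPM).

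The NRG1 effect differed between buds titled E14 and E13, by edgeR's interaction test, for Epha2 (-1.09 on the log2 scale), Sema6a (-1.0), Epha7 (-0.69) and Efna1 (0.58).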

How the results depend on the processing

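No member that was called changed direction under the alternatives run. Shares of all genes called are not given for the alternative fits, here or above. The counts therefore do not show whether members moved more than other genes. Counts of members called moved by more than 1.5 times as follows. With the compared groups alone in the fit, 11 were called at E17 against E16 (3 with all groups), 1 at E18 against E17 (10), 14 in E14 buds (23) and 6 on culture day 4 against day 3 (15). DESeq2 called 5 at E17 against E16, 10 for the difference between bud titles (4), 13 with TORIN1 (7) and 11 in KO libraries (6), and with no filter 11 were called in KO libraries. Leaving out 1 sample (for E14 controls and the culture this leaves 1 sample in a group, assumed to vary like the others) gave 63 to 65 members changed over the gland stages, 59 to 63 at E18 against E13, 21 to 24 at E14, 39 to 45 at E15, 19 to 28 at E16, 2 to 4 at E17 and 7 to 17 at E18, each against the stage before. It gave 22 to 25 in E13 buds, 14 to 27 in E14 buds, 4 to 16 for their difference, 0 to 18 with TORIN1, 0 to 13 in KO libraries, and 2 to 17, 5 to 10 and 19 to 26 on culture days 3 against 2, 4 against 3 and 4 against 2. The cause was not tested. With a replicate block, 62 members were called at E18 against E13, 27 in E13 buds, 19 in E14 buds, 10 with TORIN1 and 4 in KO libraries. On culture days 3 against 2, 4 against 3 and 4 against 2 the block gave 16, 10 and 27, taking the NRG1 and NRG2 of the column names as the number. In every comparison the block moved the count by no more than 1.5 times. The labels tie no number to a shared animal, culture or day, and in no comparison with 3 or more pairs did every same-numbered pair deviate together with a correlation above 0.1. The TORIN1 set came nearest, with 0.365, 0.248 and 0.434 for letters A, B and D and -0.125 for C, and whether its letters mark a pairing cannot be told from this. In the culture the correlation was -0.0514 between days 2 and 3, -0.451 between days 3 and 4 and 0.143 between days 2 and 4.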

Other observations

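E16 glands occur in 2 tables, as the WT samples of the KO set and as the E16 samples of the time course. Of 63 members with a mean of at least 1 CPM in either, 2 were at least 4-fold higher in the WT samples of the KO set and 0 at least 4-fold lower. Sema6c had 22.3 to 86.0 CPM there and 3.09 to 5.09 CPM in the time course, and Unc5a 11.9 to 22.2 CPM and 2.20 to 2.87 CPM. The tables were made separately, and no test was run.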
